A study of Mus musculus with 18 samples.

Results

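The transcriptional effect of E. coli was examined in eosinophils that had been given IFN-γ and apoptotic cells (ACs). The comparison set 3 libraries with IFN-γ + E. coli + ACs against 3 with IFN-γ + ACs, which are 6 of the 18 libraries of the series. A mean normalized count of 10 or more over these 6 libraries was asked of each gene, and this left 9949 of the 54446 genes in the table. The same E. coli effect without IFN-γ, in 3 libraries with E. coli + ACs and 3 with ACs alone, is given beside it.

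Eosinophils, a kind of granulocyte, were taken from the peritoneal cavity of Il5Tg mice of the C57BL/6 strain, which carry an Il5 transgene that raises eosinophil numbers. They were separated by negative selection against Thy1.2 and B220, which marks T and B cells for removal. All groups received ACs, which were wild-type thymocytes killed with dexamethasone, and in the double stimulus IFN-γ was followed by E. coli. After the co-culture the eosinophils were purified again with beads against Siglec-F, a receptor of eosinophils, the study checked purity by flow cytometry at both steps, and the RNA was sequenced from transcript 3′ ends with CEL-Seq2. The other 6 libraries of the series, from the IL-4 experiment, are not used here. The labels do not name the mouse behind each library, and the study describes its replicates as biological. The p-values measure the spread between these libraries.

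Depth was 2216917 to 4090386 counted reads in the libraries with IFN-γ + ACs, against 3294760 to 3733809 once E. coli was given too. A level of 3 reads, under which a count cannot be told from 0, stood for normalized counts of 3.44 to 6.16 in these libraries. The label of IFN-γ was checked on guanylate-binding proteins (GBPs) and immunity-related GTPases (IRGs), which IFN-γ induces. The summed normalized count of 20 such genes was 50220 to 58636 where IFN-γ was given with ACs and 10831 to 11087 for ACs alone. Of the eosinophil markers, Siglecf was at 1702, 1514 and 1675 with IFN-γ + ACs and Ccr3, the eotaxin receptor, at 3023, 2623 and 3275. Epx, which encodes the eosinophil peroxidase of the granules, was at 2.64, 2.29 and 2.05 before and 0, 0 and 1.38 after E. coli was added, all under 3 reads. Prg3, another granule gene, was at most 11.4 in any of the 6 libraries.

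RNA that marks macrophages was present and moved with the comparison. The summed normalized count of 15 macrophage markers was 34567, 41612 and 30837 before E. coli was added and 10496, 10696 and 11381 after. None of the 15 was at 0 in every library of a group. The sum of 10 eosinophil markers went from 5813, 5208 and 6033 to 8809, 7555 and 8408. Of the 7 tested, Ear6 and Ccr3 rose (with upper quartile scaling, Ear6 alone), 5 were not called, and Ccr3 made up much of the sum. Neutrophil markers summed to 2312 to 2770 and 1705 to 2104, where Cxcr2 and Mmp8 rose and Retnlg fell among 7 tested, with the granule genes Mpo and Elane at 0 in all 6 libraries. T cell markers summed to 171 to 191 and 121 to 215, dendritic cell markers to 382 to 472 and 447 to 569, B cell markers to 15 to 35 and 21 to 56, and mast cell markers to 27 to 68 and 36 to 64, and those ranges overlapped. Of these last 4 lists, 10 genes were tested, none passed by limma, edgeR or DESeq2, and 1 T cell marker was lower at an unadjusted p under 0.05. In bulk RNA, fewer cells of a type and less RNA per cell cannot be told apart. The study reports Gata6, on the list of macrophage markers, among the genes that ACs raised in its eosinophils. Which cells the macrophage marker RNA came from was not tested, nor was its part in the changes described here.

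Lipopolysaccharide of E. coli binds MD-2 (Ly96) and TLR4 with the help of CD14 and LBP. The adaptor MyD88 and the kinases of the IRAK family then activate NF-κB and MAP kinases, which drive transcription of chemokines, cytokines and their own inhibitors. IFN-γ acts through its receptor and the JAK-STAT pathway and induces IRF1, GBPs, MHC molecules and chemokines such as CXCL9 and CXCL10. Phagocytes that have met IFN-γ are known to respond more strongly to bacterial products.

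With IFN-γ and ACs present, E. coli raised 604 genes (6.07% of those tested) and lowered 860 (8.64%), 14.7% in all. The threshold was an adjusted p under 0.05 with a 1.5-fold change or more, by limma. The log2 fold change is that of the normalized count plus 1, given with its standard error (SE). Its median over all 9949 genes was -0.02. All 3 libraries with E. coli were above all 3 without it for 1434 genes (14.4%), of which 564 were among the 604, and below them for 1541 (15.5%), of which 796 were among the 860. A change of at least 4-fold was reached by 26 of the genes that rose and 82 of those that fell. Leaving out 1 of the 6 libraries gave 507 to 738 genes higher and 637 to 1023 lower.

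**Figure D1:**
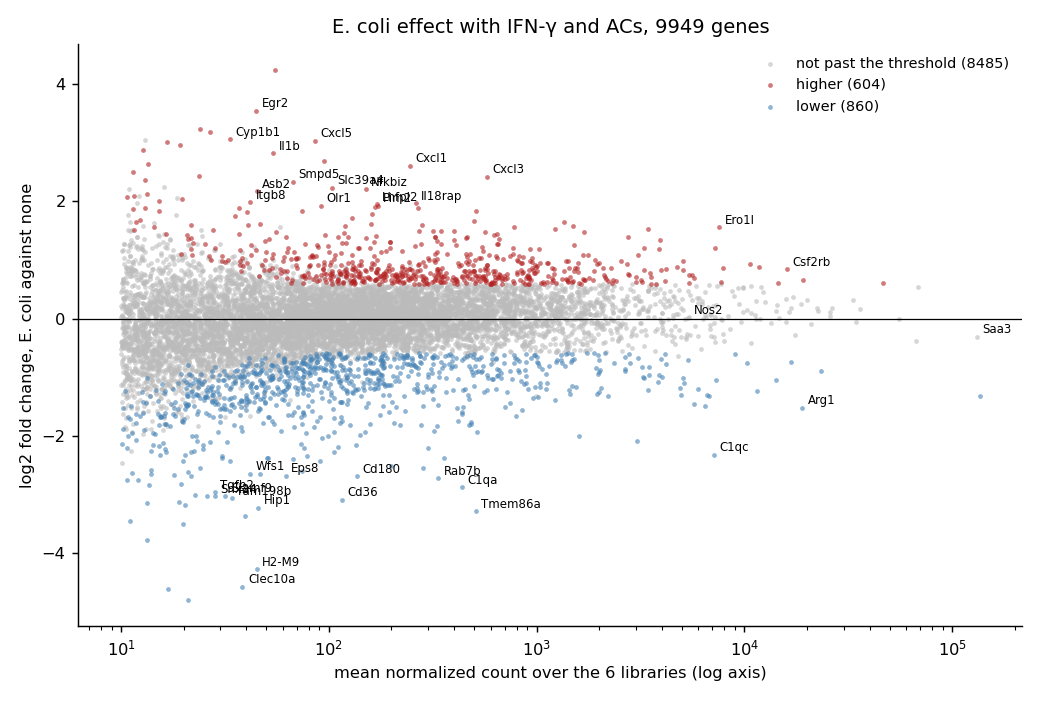
Each point is 1 of the 9949 genes, at its mean normalized count over the 6 libraries (x, log axis) and the log2 fold change of IFN-γ + E. coli + ACs over IFN-γ + ACs (y). The 604 genes past the threshold upwards are red and the 860 downwards are blue, and the largest falls reach further from 0 than the largest rises of named genes.

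Among genes without overlap whose mean in the higher group reached 50, the 15 largest rises were in Egr2, Cyp1b1, Cxcl5, Il1b, Cxcl1, Cxcl3, Smpd5, Slc39a4, Nfkbiz, Asb2, Itgb8, Il18rap, Lhfpl2, Pim2 and Olr1. Log2 fold changes ran from 3.55 for Egr2 to 1.92 for Olr1. Egr2, a zinc finger transcription factor, was at 10.6, 1.15 and 12.3 without E. coli and at 75.5, 68.4 and 99.3 with it. Cyp1b1, a cytochrome P450 and a target of the aryl hydrocarbon receptor, went from 3.96, 13.8 and 4.1 to 58.4, 51.3 and 69. Both were at low counts without E. coli, and the groups did not overlap. Slc39a4, a zinc importer, was at 25.1, 43.6 and 41 without E. coli and 182, 173 and 156 with it. Il18rap, the accessory chain of the IL-18 receptor, rose from 109, 124 and 86.2 to 409, 419 and 419 (log2 1.97 ± 0.15, adjusted p = 1.51e-07). Pim2, a survival kinase, was at 73.9, 50.4 and 84.1 and then 281, 373 and 168, with the third library lowest. Olr1, a scavenger receptor for oxidized lipoprotein, was at 29, 25.2 and 67.7 and 163, 123 and 143.

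Of the 15 largest falls, 14 were in Clec10a, H2-M9, Tmem86a, Hip1, Cd36, Fam198b, Snx24, Slamf9, Tgfb2, C1qa, Rab7b, Cd180, Eps8 and Wfs1, from -4.58 to -2.66. Tmem86a, a lysoplasmalogenase, was at 781, 1128 and 849.6 without E. coli and 107, 127 and 56.6 with it, a 9.49-fold lower mean. Clec10a, a lectin of macrophages and dendritic cells, was even between libraries at 73.9, 73.4 and 73.9 and then near the limit of 3 reads at 0, 4.89 and 4.14. H2-M9, a nonclassical MHC gene whose relatives could share its reads, was at 142, 103 and 14.4 and 0, 7.33 and 2.76, so the third library without E. coli was far below the other two. Cd36, the scavenger receptor for lipids, dropped from 189, 141 and 289 to 11.4, 40.3 and 23.4. Rab7b, a GTPase of late endosomes known to limit TLR4 signalling, was at 492, 657 and 597 and then 64.2, 84.3 and 119. Cd180, a relative of TLR4, went from 200.5, 281 and 229.8 to 35.6, 50.1 and 24.8 (log2 -2.69 ± 0.27, adjusted p = 1.73e-06).

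Chemokines of the CXC family moved in both directions. Of 12 tested, 4 rose and 5 fell. Those that rose were Cxcl1, Cxcl2, Cxcl3 and Cxcl5, the ligands of CXCR2 that attract neutrophils. Cxcl1 (ENSMUSG00000029380.11, chromosome 5 from 90891241 to 90893115 on the plus strand) was at 69.9, 64.2 and 69.8 without E. coli and 389, 420.2 and 455 with it. Both groups were tight and far apart, with means of 68 ± 3.26 and 422 ± 33.1 (SD, n = 3), 6.2-fold higher, and the log2 fold change was 2.61 ± 0.16 (adjusted p = 5.56e-09). Cxcl3 (ENSMUSG00000029379.10, chromosome 5 from 90786103 to 90789600 on the plus strand) was at 135, 163 and 252 and then 884, 809 and 1210.0, with the third library highest in both groups. Cxcl2 (ENSMUSG00000058427.10, chromosome 5 from 90903871 to 90905938 on the plus strand) was at 795, 914 and 946 and reached 2161, 2393 and 2889 (log2 1.48 ± 0.12). Cxcl5 (ENSMUSG00000029371.7, chromosome 5 from 90759360 to 90761624 on the plus strand) went from 11.9, 18.3 and 24.6 to 178, 119.7 and 163, 8.4-fold by the means. None of the 4 overlapped between groups.

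Their promoters are shown because these neighbouring genes of chromosome 5 moved together. The sequences are RefSeq's for GRCm38.p6, the 150 bases before the transcription start on the plus strand, and the capitals mark the match to the κB consensus, the sequence that NF-κB binds. Cxcl2 was added after its values were seen, and Cxcl5 and Nfkbiz had no entry.
Cxcl1 (chr5:90891095-90891244): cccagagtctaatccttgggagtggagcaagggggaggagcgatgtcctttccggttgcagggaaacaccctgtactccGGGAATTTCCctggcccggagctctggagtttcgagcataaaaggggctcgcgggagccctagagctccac
Cxcl2 (chr5:90903749-90903898): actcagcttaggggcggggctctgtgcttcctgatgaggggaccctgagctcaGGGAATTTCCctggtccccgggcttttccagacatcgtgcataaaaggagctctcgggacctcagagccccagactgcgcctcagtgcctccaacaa
Cxcl3 (chr5:90785951-90786100): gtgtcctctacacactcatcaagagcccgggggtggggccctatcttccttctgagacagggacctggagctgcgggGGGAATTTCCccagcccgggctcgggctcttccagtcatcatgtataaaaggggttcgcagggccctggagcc
The match was the same in all 3, GGGAATTTCC, and began 71 bases before the start in Cxcl1, 97 in Cxcl2 and 73 in Cxcl3. Searched on both strands from 250 bases before to 50 after the start, exactly these letters were in the promoters of 14 of 7662 tested genes with an entry (0.183%), and in 29 of 27025 in the whole table (0.107%). Among the 459 genes that rose and had an entry, the letters were in 4, the fourth being Ccr3. Nfkbia and Gbp5, which did not pass the threshold, held them too. The letters were taken from the match in Cxcl1, a gene chosen for its rise, and Cxcl2 and Cxcl3 are its relatives. Their count among genes that rose is therefore not a test of enrichment. The looser κB consensus, of which GGGAATTTCC is 1 form, was in 12.2% of tested promoters, in 15.9% of those of genes that rose and in 11.8% of those of genes that fell. It was found in 5 of the 19 genes with an entry among the 30 largest changes, which were Cxcl1, Cxcl3, Cyp1b1, Egr2 and Hip1. These are matches of letters and not measured binding sites.

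None of the other CXC chemokines rose by limma, edgeR or DESeq2, and at an unadjusted p under 0.05 6 of the 12 were higher, the 4 ligands of CXCR2 included. Cxcl9, a ligand of CXCR3 that IFN-γ induces, was at 2476, 3268 and 2723 with IFN-γ + ACs and at 1119, 1054 and 1581 once E. coli was added, and its fall (log2 -1.19 ± 0.31, adjusted p = 0.00997) was not past the threshold without IFN-γ + ACs replicate 2 (-1.08). Cxcl10 and Cxcl11, which bind the same receptor, did not pass. Cxcl10 was at 2447, 2649 and 3448 and 3557, 3486 and 4906 (adjusted p = 0.0598) and passed without IFN-γ + ACs replicate 3 (0.63), and Cxcl11 was at 166, 205 and 267 and 212, 169.8 and 221 with overlapping groups. Pf4, the platelet factor that macrophages also express, fell from 1051, 1528 and 1317 to 573, 694 and 973. Cxcl13, the attractant of B cells, fell from 1297, 1528 and 1810.0 to 809.7, 845 and 1211, and was under the threshold without IFN-γ + ACs replicate 3 (-0.58). Cxcl14 and Cxcl16 were also among the 5 that fell, and Cxcl16 was not past the threshold without IFN-γ + ACs replicate 1 (-0.62), without IFN-γ + ACs replicate 2 (-0.52) and without IFN-γ + E. coli + ACs replicate 1 (-0.52).

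Of 12 CC chemokines tested, 2 rose and 5 fell (4 with the replicate block, 6 by DESeq2), with a median log2 fold change of -0.65. Ccl3, a chemokine of inflammation, went from 77.8, 57.3 and 73.9 to 281, 228 and 277 (log2 1.90 ± 0.18, adjusted p = 9.47e-07), without overlap. Its neighbour Ccl4 rose from 194, 229 and 316 to 302, 483 and 527 with overlapping groups, a call that was lost without IFN-γ + ACs replicate 1 (0.66) and without IFN-γ + E. coli + ACs replicate 3 (0.66). The ligands of CCR2 went the other way. Ccl2, the main monocyte attractant, fell from 5445, 6582 and 8264 to 2976, 2969.6 and 4094, and Ccl12 from 98.9, 132 and 222 to 29.9, 28.1 and 46.9. Ccl17 and Ccl24, which bind CCR4 and CCR3 and belong to Type 2 responses, fell from 56.7, 61.9 and 53.4 to 11.4, 9.77 and 8.28 and from 156, 139 and 179 to 82.7, 53.8 and 75.9. Ccl7, another monocyte attractant, was the fifth, at 76.5, 94 and 137 and 54.2, 64.7 and 64.8 (log2 -0.70 ± 0.24), and its call was lost with no filter on low values (-0.70), with replicate block (-0.70), with array weights (-0.63), in the fit on the 6 libraries alone (-0.70), by edgeR (-0.70), without IFN-γ + ACs replicate 2 (-0.74), without IFN-γ + ACs replicate 3 (-0.47), without IFN-γ + E. coli + ACs replicate 1 (-0.61), without IFN-γ + E. coli + ACs replicate 2 (-0.74) and without IFN-γ + E. coli + ACs replicate 3 (-0.74). Ccl5 was at 6070.2, 7548 and 5438 and 6168, 7404 and 6256, which did not pass.

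Of 21 cytokines tested, 11 rose and the median was 0.62. None fell by limma, edgeR or DESeq2, and 1 was lower at an unadjusted p under 0.05. Il1b was at 7.91, 10.3 and 22.6 without E. coli and 111, 96.5 and 75.9 with it (log2 2.82 ± 0.41, adjusted p = 7.82e-05), and every library with E. coli was above every one without. Il1a, the other IL-1 agonist, went from 68.6, 109 and 96.5 to 285, 167 and 289.7. Il6, which drives the acute phase response, went from 27.7, 34.4 and 30.8 to 99.8, 86.7 and 167, with the third library the highest. Tnf was at 21.1, 14.9 and 10.3 and then 74.1, 56.2 and 34.5, without overlap. Csf3, the growth factor of neutrophils, and Il19, of the IL-10 family, started near the limit of 3 reads, at 6.6, 5.73 and 2.05 and 6.6, 1.15 and 2.05, and reached 61.3, 47.6 and 37.2 and 37.1, 33 and 19.3. Both chains of IL-27 rose. Il27 went from 52.8, 72.2 and 30.8 to 184, 150.2 and 86.9, and Ebi3 from 381, 355 and 396 to 887, 1086 and 799. Csf1, the macrophage growth factor, rose from 317, 344 and 404 to 831, 759.8 and 595. Osm and Il4 were the last of the 11, and the call of Osm (0.85) was lost without IFN-γ + E. coli + ACs replicate 3 (0.67). Il10, which limits inflammation, was at 113, 71.1 and 75.9 and 72.7, 64.7 and 99.3 with overlapping groups (log2 -0.13 ± 0.28). Il1rn, the antagonist of the IL-1 receptor, was higher without overlap, at 3693, 4124 and 4203 and 5782, 4795 and 6299.7, but under 1.5-fold (log2 0.48 ± 0.12) except without IFN-γ + E. coli + ACs replicate 2 (0.59) and with no fold threshold (0.48). Il12b stayed low at 13.2, 14.9 and 14.4 and 8.55, 17.1 and 9.66.

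**Figure D2:**
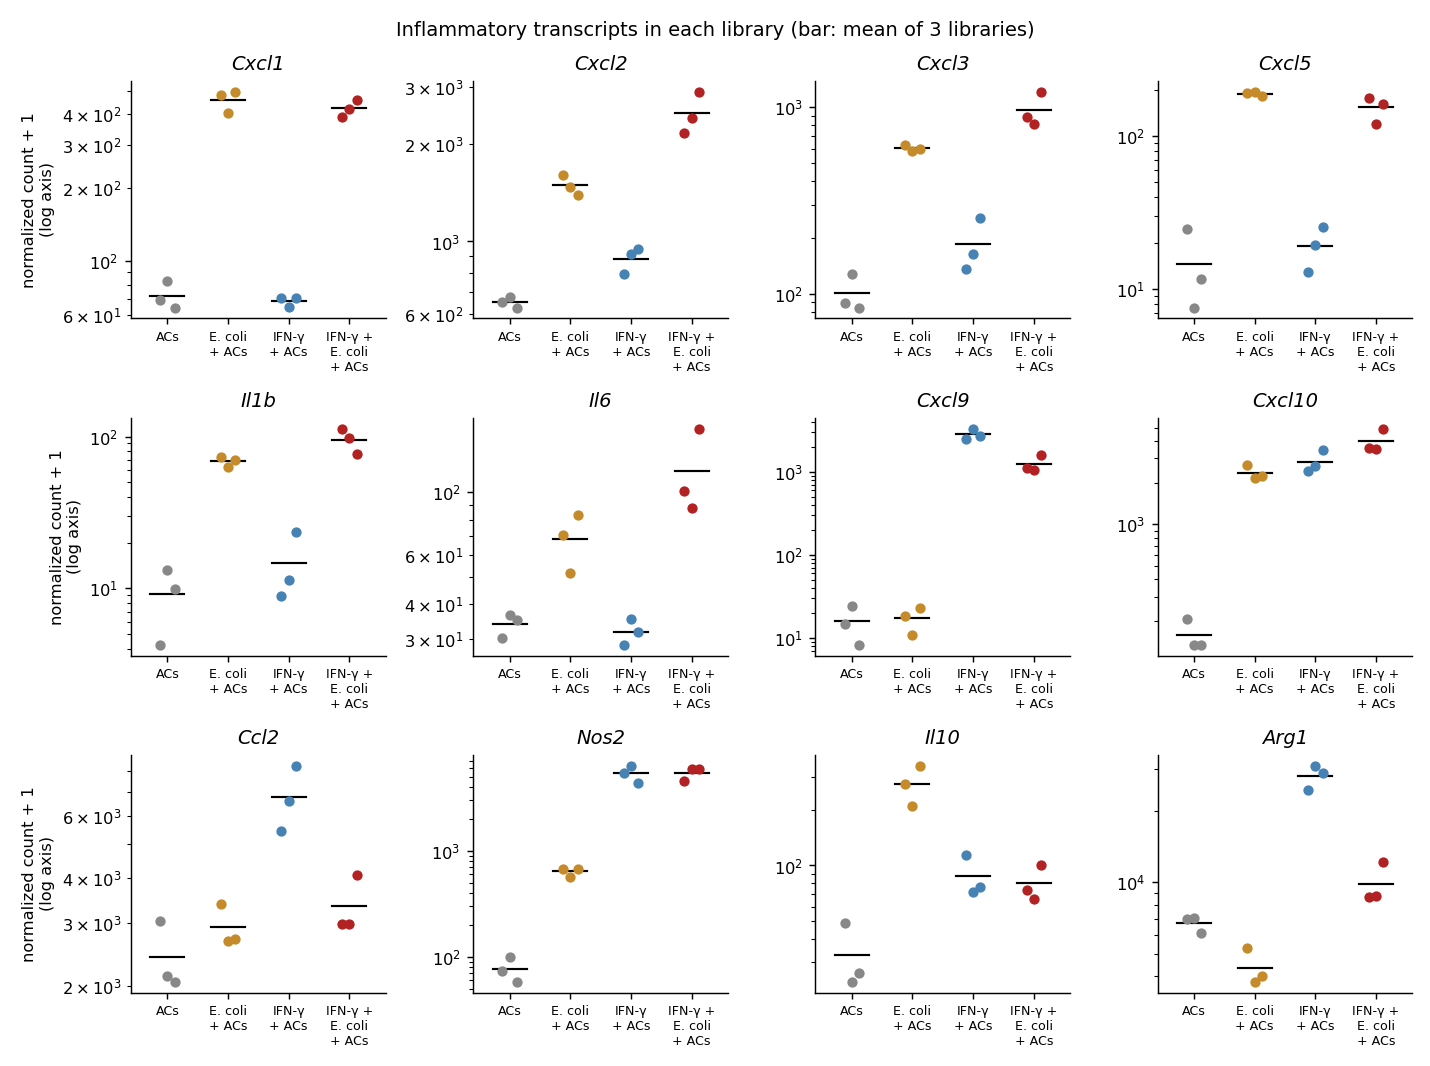
Each panel plots 1 transcript, with 1 point per library as the normalized count plus 1 (y, log axis, its own range in each panel) in the 4 groups that received ACs, and a bar at the mean of 3. The CXCR2 ligands, Il1b and Il6 are high in both groups with E. coli, whereas Nos2, Cxcl9 and Arg1 are highest in the groups with IFN-γ and Il10 is highest with E. coli alone.

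Genes of the NF-κB pathway rose as well, some of them inhibitors. Of 22 genes for subunits and feedback inhibitors, 9 rose and 1 fell, with a median of 0.41. Nfkbiz, the nuclear IκBζ that is needed for secondary response genes, went from 50.1, 52.7 and 55.4 to 264, 231 and 247 (log2 2.21 ± 0.20, adjusted p = 4.36e-07). Bcl3 and Nfkbid, nuclear IκB proteins too, rose by log2 1.61 ± 0.18 and 1.39 ± 0.14. Irak3, the kinase-dead inhibitor of IRAK signalling, went from 386, 391 and 396 to 1351, 1044 and 1116. Among enzymes that remove signalling chains or RNA, Tnfaip3 (A20) rose from 334, 272 and 291 to 747, 463 and 748, and Zc3h12a (Regnase-1) from 119, 105 and 94.4 to 239, 213 and 218. Cyld and Traf3 rose by 0.76 and 0.82. Nfkb2, which encodes p100, rose by 0.92 ± 0.23 with overlapping groups. Nfkbia, the classical IκBα, was at 4925, 4476 and 3956 and 4165, 5023 and 4712 and did not pass. Ikbke was the 1 gene that fell (log2 -0.85 ± 0.25), a call that was lost in the fit on the 6 libraries alone (-0.85), without IFN-γ + ACs replicate 1 (-0.81), without IFN-γ + E. coli + ACs replicate 1 (-0.67) and without IFN-γ + E. coli + ACs replicate 3 (-0.71).

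The sensing machinery itself did not rise as a group. Of 22 genes for sensing of LPS and bacteria, 1 rose and 4 fell, with a median of 0.13. The riser was Irak2, a kinase downstream of MyD88, from 876, 729 and 575 to 1280.1, 1060.3 and 1382. Tlr4 was at 48.8, 95.1 and 82.1 and 89.8, 67.2 and 71.7, Cd14 at 6664, 8023 and 6758 and 6534, 7346 and 8037 and Myd88 at 394, 362 and 402 and 499, 559 and 345, with overlapping groups each. Tlr7, a receptor for single-stranded RNA, fell from 97.6, 113 and 123 to 22.8, 46.4 and 37.2. Lbp fell by 1.22 on the log2 scale, and the call was lost without IFN-γ + ACs replicate 2 (-0.99). Ly96 was at 79.1, 76.8 and 94.4 and 59.9, 35.4 and 55.2 (log2 -0.75 ± 0.25, adjusted p = 0.0429), and its call was lost with no filter on low values (-0.75), with replicate block (-0.75), with array weights (-0.66), in the fit on the 6 libraries alone (-0.75), by edgeR (-0.71), by DESeq2 (-0.71), without IFN-γ + ACs replicate 1 (-0.79), without IFN-γ + ACs replicate 2 (-0.81), without IFN-γ + ACs replicate 3 (-0.66) and without IFN-γ + E. coli + ACs replicate 2 (-0.52), which left 3 that fell by edgeR or DESeq2.

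Of 24 genes for STATs, IRFs, SOCS proteins and IFN receptors, 5 rose and 1 fell, and with upper quartile scaling 3 rose. Irf1 was at 4639, 4445 and 4158 and 5615, 6394 and 4725 (adjusted p = 0.0537). Cish, an inhibitor of STAT5 signalling, went from 185, 144 and 158 to 411, 397 and 373 (log2 1.28 ± 0.13), and Ifngr1, the ligand-binding chain of the IFN-γ receptor, from 153, 164 and 205 to 311, 270.0 and 364. The gene that fell was Irf8, a factor of macrophage and dendritic cell development, from 485, 698 and 646 to 128, 246 and 283. Socs1 was uneven with E. coli, at 7020.5, 12787 and 4458 against 7376, 7869 and 7295 without.

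Of 17 GBPs and IRGs, which attack vacuoles of intracellular microbes, 1 rose and 3 fell, and 13 did not pass. Gbp8 rose from 319, 356 and 343 to 617, 748 and 944 (log2 1.16 ± 0.19, adjusted p = 0.000301). Iigp1 and Gm4951, both of the IRG family, fell from 3921, 4922 and 4714 to 1718, 2202 and 3291 and from 189.9, 214 and 275 to 84.1, 125 and 105. Members of this family are alike in sequence, so reads could be shared between them. Of 19 genes for MHC class I and the immunoproteasome, 2 rose and none fell by limma, edgeR or DESeq2, nor at an unadjusted p under 0.05. The risers were Nlrc5, the transactivator of class I genes, from 819, 544 and 671 to 1289, 1173 and 1203, and Tap2, a peptide transporter, from 695, 636 and 640.2 to 1276, 1252 and 998. B2m, the light chain, was at 53424, 63540.2 and 50336 and 53222, 50027 and 63385 with overlapping groups.

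Of 9 genes for MHC class II and its loading, 7 fell and the median was -1.36, against -0.02 over all genes. None rose by limma, edgeR or DESeq2, nor at an unadjusted p under 0.05. H2-Aa (ENSMUSG00000036594.14, chromosome 17 from 34282744 to 34287823 on the minus strand) went from 1459, 1527 and 1172 to 515, 429 and 689.9 (log2 -1.36 ± 0.16, adjusted p = 7.32e-06). H2-Ab1, its partner chain, went from 2504, 2903 and 2409 to 1419.8, 1416 and 1232, and H2-Eb1 from 1258, 1217 and 671 to 308, 327 and 446. In none of the 3 did the groups overlap. H2-DMb1, a chain of the peptide editor, went from 119, 139.8 and 125 to 18.5, 24.4 and 17.9. Cd74, the invariant chain, and Ctss, the protease that trims it, fell by 1.03 and 1.05 on the log2 scale. Ciita, the transactivator of the class, was low at 23.7, 37.8 and 30.8 and 11.4, 7.33 and 6.9, without overlap, and did not pass by limma (adjusted p = 0.113). It passed with pseudocount 5 (-1.40), in the fit on the 6 libraries alone (-1.74), by edgeR (-1.83) and by DESeq2 (-1.84), so that 8 of the 9 fell by edgeR and DESeq2. Macrophages express class II genes too, and the summed count of their markers fell in the same libraries, as given above.

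**Figure D3:**
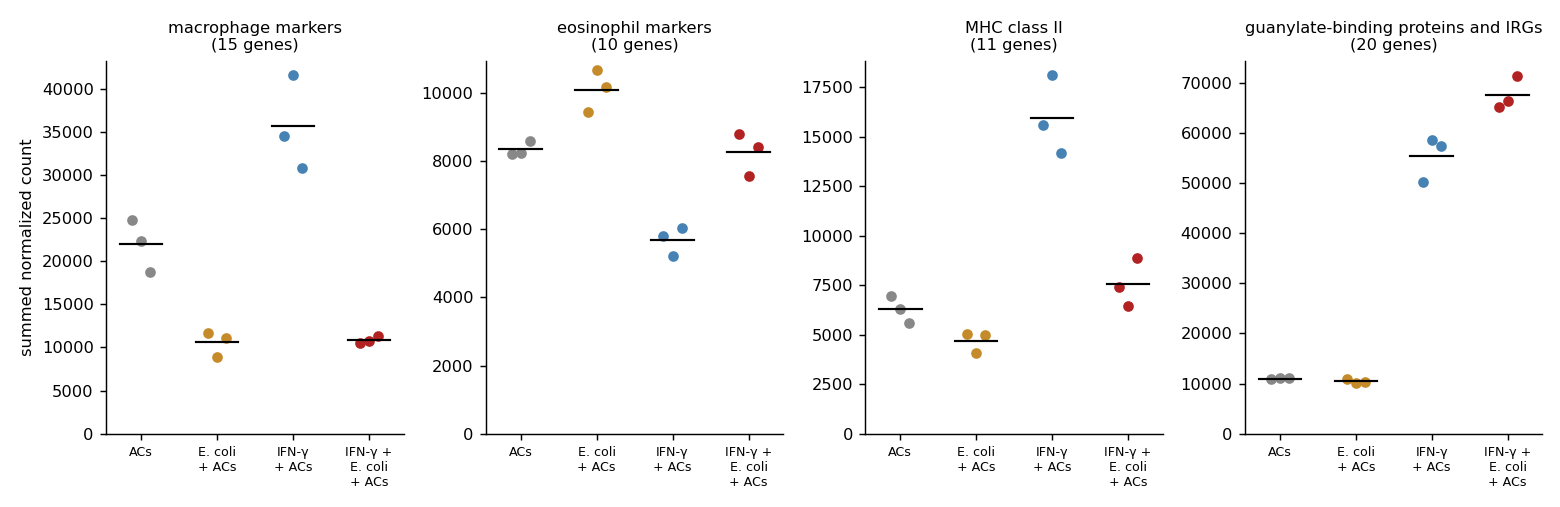
Points are the summed normalized counts of each list in each library (y, from 0) for the 4 groups with ACs, and bars are means of 3 libraries. With IFN-γ, E. coli goes with lower sums of macrophage markers (10496 to 11381 against 30837 to 41612) and of MHC class II (6425 to 8848 against 14186 to 18128), and with higher sums of eosinophil markers and of GBPs and IRGs. Gene by gene, 1 of 17 tested GBPs and IRGs rose, 3 fell and 13 did not pass by limma.

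Genes of tissue macrophages fell as a group. Of 14 macrophage markers tested, 13 fell, with a median of -1.84. None rose by limma, edgeR or DESeq2, nor at an unadjusted p under 0.05. The 14th was Csf1r, the receptor of CSF1, at 996, 1179 and 985 and 951, 898 and 814 (log2 -0.24 ± 0.12). C1qc, a chain of complement C1q, was at 11576, 14355 and 9678 without E. coli and 2138, 2615 and 2259 with it, 5.08-fold lower by the means (log2 -2.33 ± 0.15, adjusted p = 1.17e-08). C1qb and C1qa, the other chains, fell by 2.09 and 2.88. Gata6 and Timd4, typical of large peritoneal macrophages, went from 157, 199 and 172 to 42.8, 24.4 and 41.4 and from 237, 314 and 242 to 57, 79.4 and 127. Vsig4, Lyve1, Fcgr1, Cd68, Lyz2, Marco and Mertk fell too.

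Of 21 genes of efferocytosis, the uptake of dying cells, 9 fell and 1 rose, with a median of -0.57, and 5 of these 9 are also macrophage markers. Mertk and Axl, receptors for bridging proteins on phosphatidylserine, went from 702, 956 and 1019.9 to 386, 314 and 459 and from 707, 838 and 794 to 412, 346 and 403. Havcr2 (TIM-3) dropped from 36.9, 60.8 and 24.6 to 1.43, 4.89 and 6.9, and Cd93 from 132, 180.0 and 86.2 to 27.1, 26.9 and 19.3. Of 15 C-type lectins and scavenger receptors, 9 fell and 2 rose, with a median of -0.88. Msr1, the class A scavenger receptor, went from 915, 1271 and 1465 to 443, 539.9 and 708, and Clec4n (Dectin-2) from 589.6, 616 and 681 to 284, 276 and 255. The 2 that rose were Olr1 and Clec4a2.

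Of 19 genes for eosinophil granules and lineage, 6 rose and 1 fell, with a median of 0.32. Csf2rb, the shared receptor chain of IL-3, IL-5 and GM-CSF, rose from 10894, 10817 and 12643 to 22249, 20739 and 18545. Its paralog Csf2rb2 rose from 1972, 1929 and 2013 to 4938, 4079 and 4708. These genes are near identical in sequence, so reads could be shared. Ear6, a granule ribonuclease of a family with close relatives, rose from 413, 336 and 357 to 972, 823 and 1057 (log2 1.36 ± 0.13). Its relative Ear2, too low to be tested, went from 21.1, 11.5 and 8.21 to 0, 3.66 and 2.76, at or under 3 reads. Gata1, the transcription factor of the lineage, rose from 908, 614 and 591 to 1369.9, 1336 and 1142. Ccr3 rose from the values above to 4934, 4005 and 4556, which did not pass with upper quartile scaling (0.54), without IFN-γ + ACs replicate 2 (0.51) and without IFN-γ + E. coli + ACs replicate 1 (0.53). Siglecf, the protein used for purification, was at 2019.9, 1728 and 2017 with E. coli, above all libraries without it but under the threshold (log2 0.24 ± 0.10). Il5ra was at 248, 248 and 291 and 299, 303 and 381. With upper quartile scaling 4 genes of this list rose. Cebpa, a factor of myeloid progenitors, was the 1 that fell, from 165, 177 and 129 to 25.7, 66 and 31.7.

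Of 12 checkpoint and costimulatory genes, 5 rose and 2 fell. Cd274 (PD-L1) went from 1394, 1740.0 and 1709 to 2267, 2745 and 2937, Cd69 from 127, 118 and 154 to 316, 182 and 451 and Cd44 from 3896, 3107 and 3800.5 to 8348, 4830.0 and 6472, none with overlap. The 2 that fell were Cd40, from 604, 828 and 614 to 321, 358 and 413, and Cd86, from 334, 434 and 472 to 172, 138 and 236. Of 16 adhesion molecules, 5 rose and 1 fell. Cd9, a tetraspanin, went from 2237, 1933 and 2454 to 6254, 4609 and 6043 (log2 1.35 ± 0.14), and Itgam (CD11b) from 7613, 7329 and 6929.9 to 13449, 12505 and 15711. Selp, P-selectin, was the gene that fell, from 687, 801 and 971 to 352, 437 and 409.8. Of 19 chemoattractant receptors, 5 rose (3 with upper quartile scaling) and 2 fell. Cxcr2, the receptor of the chemokines that rose, went from 48.8, 43.6 and 96.5 to 189.6, 216 and 184, and S1pr1, the receptor of sphingosine 1-phosphate, from 84.4, 91.7 and 107 to 218, 197 and 244.

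Of 24 effector enzymes of activated phagocytes, 5 rose and 2 fell, and both edgeR and DESeq2 gave 8 risers. Nos2, the inducible nitric oxide synthase (ENSMUSG00000020826.8, chromosome 11 from 78920787 to 78960254 on the plus strand), was at 5408, 6298 and 4383 without E. coli and 4509, 5899 and 5898 with it (log2 0.02 ± 0.17). Acod1, which makes itaconate, was at 844, 1004 and 1172 and 1404, 1041 and 1518 with overlapping groups. Arg1, the arginase that uses the same substrate as Nos2, fell from 24549, 30994 and 28961 to 8643, 8709.6 and 12205 (log2 -1.53 ± 0.15, adjusted p = 9.3e-07). Ass1, which regenerates arginine, fell from 141, 225 and 154 to 42.8, 84.3 and 31.7. Ptgs2 (COX-2), the enzyme of prostaglandin synthesis, rose from 168, 183 and 324 to 761, 589 and 1036, and Hdc, which makes histamine, from 226, 279.7 and 252 to 719.9, 651 and 597.

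Of 15 antimicrobial and acute phase genes, 1 rose and 5 fell, and the median was 0.03 (-0.02 with upper quartile scaling). Saa1 was the riser, from 38.2, 32.1 and 18.5 to 79.8, 73.3 and 91.1, and reads could be shared with its paralogs. Saa3 was at 146176 and 116709 on average and did not pass (adjusted p = 0.162). C3, the central complement component, fell from 949.7, 1012 and 687 to 537, 412 and 428. Lcn2, which binds bacterial siderophores, was at 9539, 11147 and 5664 and 6218, 7431 and 7512 with overlap. Of 33 antiviral interferon-stimulated genes, 1 rose and 4 fell. The riser was Ifitm1, from 2635, 2427 and 2077 to 4951, 5393 and 5786 (log2 1.18 ± 0.14), and Ifit3 fell from 2522, 2773 and 2555 to 1386, 1391 and 1400.4. Isg15 was at 2118, 3148 and 3080.2 and 1903, 2312 and 2372 and Rsad2 at 7892, 10047 and 11744 and 8269, 9380.2 and 10716, both with overlap.

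Of 27 genes of glycolysis and the low-oxygen response tested, 14 rose and 1 fell, with a median of 0.66, and the counts were the same with upper quartile scaling, edgeR and DESeq2. Ero1l, an oxidase of the endoplasmic reticulum and a target of HIF-1, went from 3432, 3421 and 4728 to 12430.2, 10569 and 10821 (log2 1.56 ± 0.14, adjusted p = 3.68e-07). Egln3, a prolyl hydroxylase that HIF-1 induces, went from 1583, 1678 and 2017 to 5926, 4869 and 4541. Hif1a itself rose from 952, 908 and 1172 to 2038, 1463 and 2046. The glucose transporters Slc2a1 and Slc2a3 reached 894, 539 and 593 and 574, 517 and 308 from 297, 305 and 392 and 169, 113 and 261. Of the enzymes, Hk2 rose by 0.98 ± 0.16, Pfkp by 1.19 ± 0.14 and Pgam1 by 0.67 ± 0.10 on the log2 scale. Hk3, the hexokinase of myeloid cells, was the 1 gene that fell, from 1012, 1345 and 1180.0 to 497, 711 and 588.

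**Figure D4:**
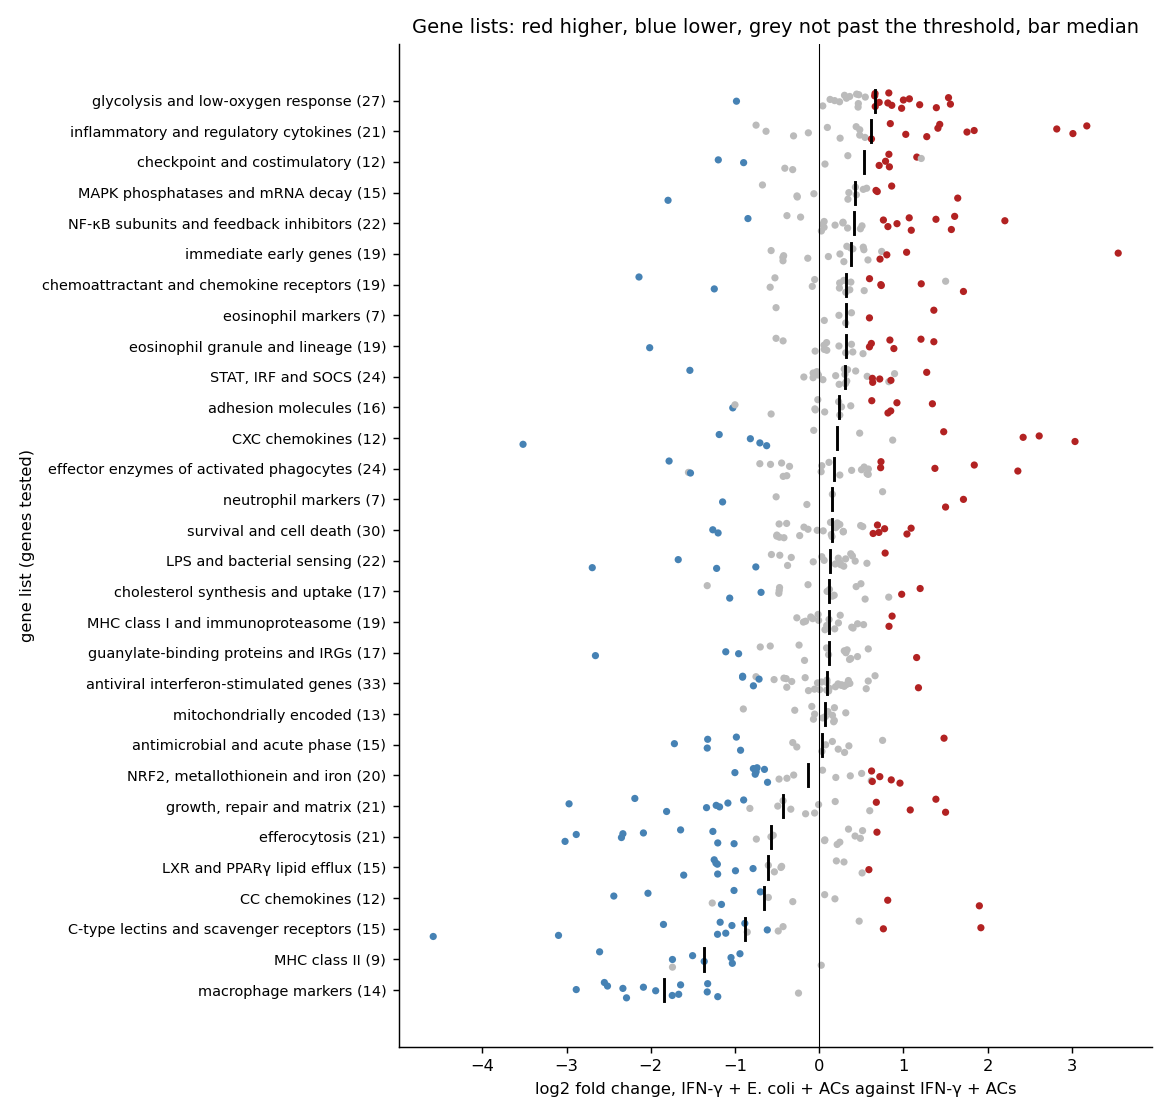
Each row is a gene list, each point a tested gene at its log2 fold change (x), red where it rose, blue where it fell and grey otherwise, with a bar at the median and the number tested in brackets. Lists with fewer than 7 tested genes are left out, and the medians run from -1.84 for macrophage markers to 0.66 for glycolysis and the low-oxygen response.

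Of 15 genes of LXR, PPARγ and lipid efflux, 7 fell and 1 rose, with a median of -0.60. The 1 that rose was Srebf1, a regulator of fatty acid synthesis, from 73.9, 92.8 and 82.1 to 134, 119.7 and 121 (log2 0.59 ± 0.20). It passed by edgeR and DESeq2, and its call was lost when any 1 of the 6 libraries was left out (0.51 to 0.67) and with the replicate block, upper quartile scaling (0.54), array weights, pseudocount 5, no filter or the 6 libraries alone. Apoe, the apolipoprotein that exports cholesterol, went from 8057, 9796 and 7162 to 3481, 3898 and 3398, and Plin2, the coat of lipid droplets, from 4574, 5038 and 4866 to 2009.9, 2232 and 1952 (log2 -1.23 ± 0.12, adjusted p = 9.9e-07). Nr1h3 (LXRα) fell from 93.7, 135 and 109 to 24.2, 41.5 and 45.5. Fabp4, Fabp5 and Lpl fell by 1.25, 1.21 and 0.99 on the log2 scale. Of 17 genes of cholesterol synthesis and uptake, 2 rose and 2 fell.

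Of 20 genes for NRF2 targets, metallothioneins and iron, 5 rose (2 with upper quartile scaling) and 7 fell. Nqo1, a quinone reductase and NRF2 target, rose from 261, 188 and 207 to 495, 326 and 468. Prdx1, a peroxiredoxin, fell from 11854, 13306 and 13636 to 7219, 6806 and 9026 (log2 -0.76 ± 0.13). The zinc binders Mt1 and Mt2 fell by 0.75 and 1.00. Without IFN-γ, E. coli raised 12 of these 20 genes and lowered none by limma, against 5.15% raised and 5.16% lowered of all genes tested. By the test of the difference, 13 had a more negative effect with IFN-γ and none a more positive one. Over all genes tested these shares were 4.37% and 3.18%. None of 13 mitochondrially encoded mRNAs passed by limma, edgeR or DESeq2, nor did any have an unadjusted p under 0.05. By contrast, the ribosomal RNA mt-Rnr2, chosen after its values were seen, was at 189466, 171237 and 219361 without E. coli and 64639, 85379.6 and 82208 with it. The mitochondrial share of reads was 8.36 to 9.47% before and 6.05 to 7.38% after E. coli was added, and its part in other changes was not tested.

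Of 19 immediate early genes, 4 rose by limma, 6 by edgeR and 7 by DESeq2. None fell by these 3 tools, and 3 were lower at an unadjusted p under 0.05. Egr1 was at 69.9, 29.8 and 41 and 96.9, 97.7 and 81.4 (log2 1.04 ± 0.26), and its call was lost without IFN-γ + ACs replicate 2 (0.76). Fosl2, of the AP-1 family, went from 381, 305 and 389.9 to 774, 469 and 666. Of 15 MAPK phosphatases and mRNA decay factors, 4 rose and 1 fell. Dusp6, which inactivates ERK, led with 641, 528 and 817 and then 2135, 1918 and 2078 (log2 1.65 ± 0.14, adjusted p = 2.27e-07). Of 30 genes of survival and cell death, 6 rose and 2 fell. Birc3, an inhibitor of apoptosis and NF-κB target, went from 2597, 2566 and 2586 to 4653, 3782 and 4938, and Nlrp3, the inflammasome sensor, from 58, 75.7 and 119 to 169.6, 151 and 201. Its adaptor Pycard (ASC) fell from 948, 1119 and 985 to 403, 395 and 473.

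Of 21 genes of growth, repair and matrix, 4 rose and 8 fell, with a median of -0.43. Mmp8, a neutrophil collagenase, and Mmp25, a membrane metalloproteinase, rose from 216, 228 and 179 to 653, 535 and 578 and from 1061, 1119 and 1217 to 2651, 2350.2 and 2202. Serpinb2, an inhibitor of plasminogen activators, rose from 1417, 1467 and 1670.4 to 4201, 3247 and 4557. Tgfb2 dropped from 31.7, 45.9 and 75.9 to 4.28, 6.11 and 5.52, and Thbd, thrombomodulin, from 152, 209 and 181 to 27.1, 37.9 and 55.2. Timp2 fell from 654, 829 and 718 to 201, 225 and 197. Chil3 and Retnla, which Type 2 signals induce, fell as well, Chil3 from 4898, 5794 and 4866 to 2128, 2332 and 2922 and Retnla from 30353 to 16487 on average.

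Without IFN-γ, E. coli raised 512 genes (5.15%) and lowered 513 (5.16%) of the same 9949, 10.3% in all. The 9949 were kept by their mean over the libraries with IFN-γ, so genes expressed mainly without IFN-γ could be left out. Cd163 was left out, at 45.5, 72.3 and 40 with ACs and 14.2, 4.91 and 6.16 with E. coli + ACs. Saa2 was left out too, at 10.6, 15 and 11.4 and then 42.7, 25.3 and 41.3. The counts without IFN-γ and of the difference can therefore miss such genes. Of the 604 genes raised with IFN-γ, 174 (28.8%) were raised without it as well, which is 34.0% of the 512. Of the 860 lowered, 188 (21.9%) were lowered without it, which is 36.6% of the 513. Another 14 of the 604 were lowered without IFN-γ and 24 of the 860 were raised. Across the 9949 genes the log2 fold changes had a Pearson correlation of 0.37, a description across genes that share normalization and are not replicates. The difference of the effects, tested by the interaction in the same fit over 12 libraries, passed for 316 genes towards a more positive effect with IFN-γ (3.18%) and for 435 towards a more negative one (4.37%), 7.55% in all. The 4 groups of this test share no library between the effects. Of the 604 genes raised with IFN-γ, 149 were among these 316, and of the 860 lowered, 214 were among the 435. A call in 1 setting only does not by itself show that the effects differed. Without E. coli + ACs replicate 1, the test gave 164 and 240 genes.

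The CXCR2 ligands were raised in both settings. The effect without IFN-γ was log2 2.67 ± 0.16 for Cxcl1, 2.61 ± 0.21 for Cxcl3, 1.19 ± 0.12 for Cxcl2 and 3.88 ± 0.35 for Cxcl5. Their differences were -0.06 ± 0.22, -0.19 ± 0.30, 0.29 ± 0.17 and -0.84 ± 0.49 (SE), and none passed (adjusted p of 0.913, 0.772, 0.333 and 0.329). Both effects passed for Il1b too, at 2.82 with and 3.06 without IFN-γ, and for Ptgs2, at 1.84 and 1.93. A p that missed the threshold does not show that the effects were equal.

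For a second set the effect of E. coli was larger without IFN-γ, by the test of the difference. Nos2 was at 73.2, 99.5 and 57.1 with ACs and 671, 565 and 680.0 with E. coli + ACs, a log2 effect of 3.07 ± 0.17, and the difference of the effects was -3.05 ± 0.25 (adjusted p = 5.5e-07). Every library with IFN-γ was above every library without it. Cxcl10 went from 207, 133 and 134 to 2707, 2166 and 2222 without IFN-γ (difference -3.44 ± 0.25, adjusted p = 9.83e-08). Cxcl11 went from 5.69, 2.82 and 4.08 to 68.7, 76.8 and 60.7 (difference -3.84 ± 0.36). Il10 rose from 48, 22.5 and 25.3 to 273, 209 and 343 without IFN-γ, the highest level of the 4 groups, against its overlapping values with IFN-γ (difference -3.25 ± 0.40, adjusted p = 3.71e-05). Acod1 and Slc7a2, an arginine transporter, had effects of 2.51 and 2.01 without IFN-γ and of 0.39 and 0.03 with it. The antimicrobial S100a8 went from 46.4, 56.3 and 39.1 to 383, 254 and 354, and with IFN-γ it did not pass (log2 0.16 ± 0.22). Ch25h, which makes 25-hydroxycholesterol, went from 12.2, 13.1 and 13.1 to 129.8, 103 and 125 without IFN-γ. With it Ch25h was at 60.7, 98.6 and 86.2 and 51.3, 34.2 and 66.2 (log2 -0.70 ± 0.27), which overlapped and passed only without IFN-γ + ACs replicate 1 (-0.90) and without IFN-γ + E. coli + ACs replicate 3 (-0.92).

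For other genes the effect was more positive with IFN-γ or had the opposite sign. Mmp8 was at 548, 534 and 485 with ACs and 220.2, 200.3 and 159 with E. coli + ACs, so it fell without IFN-γ (log2 -1.44 ± 0.15) and rose with it, a difference of 2.94 ± 0.21 (adjusted p = 9.83e-08). Gbp8 fell from 56.1, 51.6 and 71 to 21.8, 28.6 and 20.2 without IFN-γ (difference 2.46 ± 0.27). Egr1 fell from 494, 494 and 637 to 107, 172 and 104 (difference 3.14 ± 0.36), and Klf2, a quiescence factor, from 1228, 1359.8 and 1258 to 471, 441 and 504 (difference 1.81 ± 0.21). Itgb7, an integrin chain of intestinal homing, had an effect of -1.12 without IFN-γ and of 0.82 with it. Dusp6 had an effect of 0.25 without IFN-γ (difference 1.40 ± 0.19).

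MHC class II was among the genes with a more negative effect with IFN-γ, in 5 of 9 tested. H2-Aa was at 322, 295 and 307 with ACs and 339, 273 and 339 with E. coli + ACs, and the difference was -1.40 ± 0.23 (adjusted p = 0.000807). H2-Ab1 was at 468, 449.5 and 432 and 531, 418 and 562 (difference -1.09 ± 0.18). With E. coli, levels with IFN-γ were between those with ACs alone and those with IFN-γ + ACs for both genes. The macrophage markers fell in both settings. Of the 14 kept by their mean with IFN-γ, 8 fell without it (median -1.09) and 13 with it. The summed count of all 15 listed went from 18782 to 24769 with ACs to 8946 to 11718 with E. coli + ACs. A more negative effect with IFN-γ was found for 7 of the 14. C1qa and C1qc were among these 7, with differences of -1.56 ± 0.34 and -0.82 ± 0.21, and Vsig4 was not, at 0.22 ± 0.34.

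**Figure D5:**
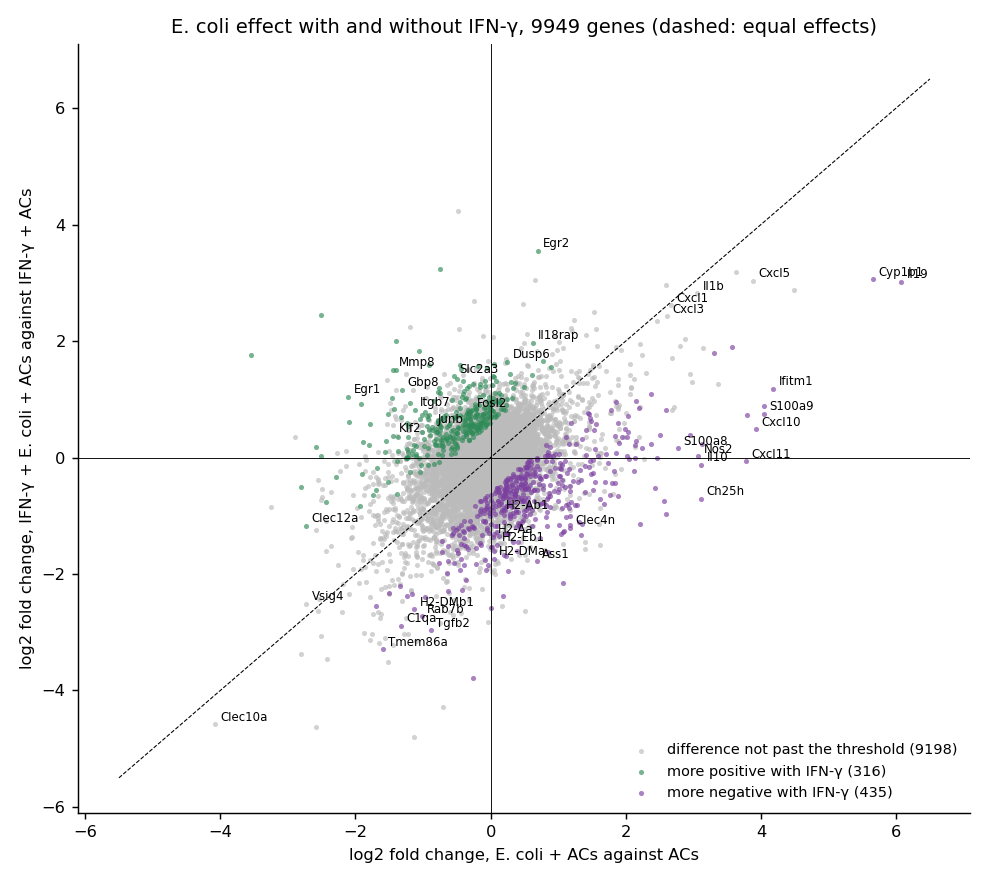
Each point is 1 of the 9949 genes, at the log2 fold change of E. coli without IFN-γ (x) and with it (y), with a dashed line where both are equal. The 316 genes with a more positive effect with IFN-γ are green and the 435 with a more negative one are purple, and Cxcl1, Cxcl3 and Il1b lie by the line whereas Nos2, Cxcl10, Cxcl11 and Il10 lie to the right near 0.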

How the data were processed

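Eosinophil RNA from 18 CEL-Seq2 libraries was counted by the authors, and the table they deposited holds a normalized signal, read counts divided by DESeq2 size factors. The submitters' processing notes name TopHat2 (2.1.0), HTSeq (0.6.1), DESeq2 (1.26.0) and the build GRCm38. Low values were whole multiples of 1 read, so whole reads were recovered for 100.0% of values (tolerance 0.006) and used for depth, edgeR and DESeq2. Counting error only is covered by the limit of 3 reads.

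Of 54446 genes, 9949 with a mean of at least 10 over the 6 libraries were tested, and 37 IDs had no symbol. Log2(value + 1) was fitted by limma (3.58.1, R 4.3.3) with a trended prior over 12 libraries in 4 groups, for the E. coli effect with IFN-γ, without it and their difference. A call was a Benjamini-Hochberg adjusted p under 0.05 with at least 1.5-fold change. Adjusted p-values are from limma unless another tool is named. With 3 libraries a group, an exact permutation test cannot go below 0.1. Genes named were the 15 largest rises and 15 largest falls that did not overlap and whose higher group averaged 50 or more, and members of gene lists that passed or define a list. The members and lists were chosen with earlier results of these data known. Alternatives were pseudocount 5, no filter, a mean of at least 50, upper quartile scaling, array weights, no fold threshold, edgeR (4.0.16), DESeq2 (1.42.0), a replicate block, the 6 libraries alone and leaving out each library. A few genes of these lists are not reported here. Code was tested on simulated data. Promoters came from RefSeq (GRCm38.p6).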

Additional observations from a re-analysis of the deposited data

Results flagged for a closer look

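The effect of E. coli differed with and without IFN-γ by the interaction test of limma, for 316 genes with a more positive effect with IFN-γ and 435 with a more negative one. The values here are that log2 difference, the effect with IFN-γ minus the effect without it.

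Among chemokines, cytokines and effectors named in the report, the difference was -3.84 for Cxcl11, -3.82 for Ch25h, -3.44 for Cxcl10, -3.25 for Il10, -3.06 for Il19 and -3.05 for Nos2. It was -3.29 for S100a9, -2.62 for S100a8, -3.01 for Ifitm1, -2.59 for Cyp1b1, -2.46 for Ass1 and -2.39 for Clec4n. S100a9, the partner of S100a8 in calprotectin, was at 2.44, 0 and 4.08 with ACs alone, 51.9, 38.4 and 36.9 after E. coli, 10.6, 20.6 and 12.3 after IFN-γ and 31.4, 13.4 and 33.1 after both. Cyp1b1 was at 5.69, 1.88 and 0 with ACs alone and 143, 134 and 126 after E. coli. A level of 3 reads stood for 2.44 to 2.82 with ACs alone. Both genes started near that limit, so the size of their differences is uncertain.

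For MHC class II the difference was -1.79 for H2-DMa, -1.59 for H2-Eb1, -1.47 for H2-DMb1, -1.40 for H2-Aa and -1.09 for H2-Ab1. Among the 15 largest falls it was -2.09 for Tgfb2, -1.71 for Rab7b, -1.70 for Tmem86a and -1.56 for C1qa.

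The difference was most positive for Egr1 (3.14), Mmp8 (2.94), Egr2 (2.86), Gbp8 (2.46), Itgb7 (1.94), Slc2a3 (1.93), Klf2 (1.81), Clec12a (1.55), Dusp6 (1.40), Junb (1.40), Il18rap (1.35) and Fosl2 (1.09). Junb, of the AP-1 family, was at 1687, 1803 and 1851 with ACs alone, 893, 1029 and 1014 after E. coli, 743, 739 and 597 after IFN-γ and 998, 1346 and 738 after both. Clec12a, an inhibitory lectin, was at 908, 997 and 914, 131, 153 and 139, 62, 69.9 and 55.4 and 28.5, 29.3 and 23.4 in the same order.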

How the results depend on the processing

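The counts of genes raised and lowered by E. coli with IFN-γ (604 and 860) were 656 and 788 by edgeR, 663 and 802 by DESeq2, 501 and 969 with upper quartile scaling and 488 and 608 in a fit on the 6 libraries alone, which shared 73.7% of the calls. With no fold threshold, 966 genes were higher. Leaving out 1 library gave 507 to 738 genes higher and 637 to 1023 lower. Without IFN-γ, array weights gave 820 genes lower against 513. The difference of the effects was more positive for 475 genes by DESeq2 against 316, and leaving out 1 library gave 164 to 447 more positive and 240 to 588 more negative. The low values came without E. coli + ACs replicate 1 (164 and 240), and counts were also over 1.5 times smaller without ACs replicate 3 (179 and 262), ACs replicate 2 (191 more positive) and IFN-γ + ACs replicate 2 (273 more negative). No direction of a called result was reversed, and 152 of the 176 called genes considered for the text passed under all 16 settings run for them. The cause of these changes was not tested.

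With the replicate number as a block (replicate block), 616 and 860 genes passed with IFN-γ, 509 and 521 without it and 314 and 429 for the difference, and 97.6% of the calls with IFN-γ were shared. Deviations of same-numbered libraries from their group means had correlations of 0.064, 0.094 and 0.109, and each library correlated best with its own number, a hint from the data that does not establish pairing. Transcripts at under 3 reads, normalized counts of 3.44 to 6.16 in the libraries with IFN-γ and 2.44 to 2.82 with ACs alone, could not be told from 0.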
